A study of Mus musculus with 16 samples.

Results

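Leukocytes of the knee joint were followed through 9 genes that mark them in general: Ptprc, Cd53, Vav1, Rac2, Hmha1, Acap1, Was, Coro1a and Lcp1. All 9 were found among the 13733 genes of the bulk RNA-seq table of knee joint cells. They were chosen by their difference between injured Trem2-/- and WT joints, or with it known: Hmha1 and Acap1 passed adjustment in a fit of those groups alone, and the rest are leukocyte genes named with that comparison in view. The values of that comparison are therefore given for them as a description, without a test. All 9 passed the filter on low values.

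The 16 libraries came from 4 mice in each of 4 groups of C57BL/6 background. WT D0 and Trem2-/- D0 were uninjured joints. WT D7 and Trem2-/- D7 were joints taken 7 days after a single mechanical overload that tears the anterior cruciate ligament, given at 10 weeks of age. Trem2-/- mice lack the myeloid surface receptor Trem2 in every cell that would express it, so the deletion is not limited to a cell type. The study's methods name male mice and enzymatic release of the cells, with reference to a single-cell protocol that separates cells by CD45. Whether these libraries were enriched for CD45, the protein made from Ptprc, is not stated. The sample labels also give an age of 16 weeks, describe homogenized joints of control and diabetic mice, and name another library kit than the study's methods. Which description holds for these libraries could not be settled, and the groups used here rest on genotype and injury, on which both sources have the same entries. No label gives a batch.

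Leukocytes move and respond through a rapidly rebuilt actin network under the plasma membrane. Signals from surface receptors reach it through Src family kinases, guanine nucleotide exchange factors and small GTPases, which start and stop actin branching and bundling. Each of the 9 genes encodes the blood cell form of a protein family that has other members in most tissues, so a joint contains both forms.

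Ptprc encodes CD45, a receptor tyrosine phosphatase that activates Src family kinases, and Cd53 a tetraspanin of the leukocyte surface. Among the regulators of GTPases, Vav1 is an exchange factor for small GTPases, Rac2 is the blood cell form of the GTPase Rac, Hmha1 (Arhgap45 in current annotation) is a GTPase activating protein, and Acap1 acts on the GTPase Arf6 in membrane recycling. Of the actin proteins, Was is the Wiskott-Aldrich syndrome protein that turns on Arp2/3, Coro1a is the actin binding protein coronin 1A, and Lcp1 is the bundling protein L-plastin.

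The genes lie on 9 different chromosomes of GRCm38. In the GENCODE M21 annotation Ptprc spans chr1:138062861-138175708, Cd53 chr3:106759921-106790149, Coro1a chr7:126699773-126707787, Acap1 chr11:69881567-69895539, Rac2 chr15:78559167-78572783 and Was chrX:8081453-8090498, each on the minus strand. Hmha1 at chr10:80016653-80031472, Lcp1 at chr14:75131101-75230842 and Vav1 at chr17:57279100-57328031 are on the plus strand. Exons of Coro1a share 26 bases with Bola2 on the other strand, and exons of Lcp1 share 311 with the non-coding Gm15628 and 219 with Gm15629, also on the other strand. The counting is not stated to use strand, so reads in those bases could belong to either gene. Of the 75-base stretches of Lcp1 transcripts, 0.849% also occurred in Gm6201 or Gm7823, and no such stretch of the other 8 genes occurred in another gene.

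RefSeq promoter windows of 300 bases (250 before to 50 after a start, GRCm38.p6) were matched for 7 of the 9 genes, 12 windows in all. The motif AGGAAGT, a form of the ETS family site, was searched on both strands and was present in 5 of these 12 windows, from 4 genes (Ptprc, Cd53, Vav1 and Was), and in 9.35% of all 32851 windows. GAGGAA, which overlaps it in part, was present in 5 of the 12 (28.3% of all windows), TGTGGT, the RUNX core, in 5 of 12 from 3 genes (16.8%) and TATAAA in 1 of 12 (13.6%). Windows of a gene can overlap, and a site in the shared bases is counted in each. This holds for an AGGAAGT site of Ptprc and a TGTGGT site of Hmha1, so the windows are not independent. The 250 bases before the start are shown for the 3 genes with AGGAAGT upstream of a start, which come from each of the 3 roles. Genes without AGGAAGT in their windows moved with the others as well. Any part of the motif in the levels was not tested. Capitals mark AGGAAGT or its reverse complement ACTTCCT.
Ptprc chr1:138175306-138175555, minus strand: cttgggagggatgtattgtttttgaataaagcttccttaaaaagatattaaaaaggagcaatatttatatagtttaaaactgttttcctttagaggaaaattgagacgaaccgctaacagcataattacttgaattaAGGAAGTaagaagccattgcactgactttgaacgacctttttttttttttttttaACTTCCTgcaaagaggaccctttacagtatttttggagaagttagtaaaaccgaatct
Vav1 chr17:57278850-57279099, plus strand: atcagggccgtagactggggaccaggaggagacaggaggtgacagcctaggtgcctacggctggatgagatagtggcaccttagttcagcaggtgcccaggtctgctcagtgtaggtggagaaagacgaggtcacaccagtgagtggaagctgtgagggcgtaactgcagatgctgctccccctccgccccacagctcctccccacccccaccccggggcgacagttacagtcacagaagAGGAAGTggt
Was chrX:8090492-8090741, minus strand: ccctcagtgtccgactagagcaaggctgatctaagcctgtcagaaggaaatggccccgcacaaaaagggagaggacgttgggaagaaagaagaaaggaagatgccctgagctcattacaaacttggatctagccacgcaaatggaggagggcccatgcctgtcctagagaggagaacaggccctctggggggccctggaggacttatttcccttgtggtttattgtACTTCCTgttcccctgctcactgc
In these stretches the motif begins 113 bases before the start of Ptprc on the gene's strand and 58 before it on the other, 10 before the start of Vav1, and 24 before that of Was on the other strand. In Cd53 it begins at base 7 of the transcript, on the other strand. A match of letters is a description of the window and no evidence of binding.

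Levels were given as CPM, the reads of a gene divided by a library size that includes the TMM factor, on libraries of 11567073 to 32867818 reads (median 16399898). At this depth 3 reads correspond to 0.101 to 0.250 CPM, and the lowest value of any of the 9 genes was 13.3 CPM (Was). Trem2, the knocked-out gene, had 4.56 ± 1.40 CPM at WT D0 and 1.80 ± 0.713 at Trem2-/- D0, and 16.8 ± 5.08 at WT D7 against 4.27 ± 0.644 at Trem2-/- D7 (SD, n = 4). Reads of Trem2 thus remained in every Trem2-/- library, at 0.948 to 2.68 CPM at D0 and 3.42 to 4.84 at D7, above the 3-read limit. Neutrophil, macrophage, B cell and T cell markers were above 0 in every library, as were collagens and other connective tissue markers, so the libraries were of mixed joint cells. In such bulk samples fewer leukocytes and less RNA per leukocyte cannot be told apart. The labels number the samples 1 to 4 within a group and give no animal identity, litter or day, so p-values measure the spread between these samples, which may in part be technical.

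All 9 genes took a smaller share of the reads at D7 than at D0 in both genotypes. In WT, the log2 difference in level between D7 and D0, on the log2(CPM + 1) scale, ran from -1.25 (Coro1a) to -0.70 (Vav1), and in Trem2-/- from -2.35 (Acap1) to -1.58 (Cd53). All 9 were called lower in each genotype by limma at an unadjusted p under 0.05 and a change past the fold threshold of the study's methods (a rise of 25% or its reciprocal), against 18.2% of all 13173 genes tested in WT and 27.9% in Trem2-/-. The median difference of the 9 genes was -0.96 in WT and -2.01 in Trem2-/-, beside -0.04 over all genes in each. The D7 mice of both comparisons are those of the comparison with which the genes were chosen, and each genotype has its own D0 mice. A choice by lower levels in Trem2-/- D7 than in WT D7 favours a larger fall in Trem2-/- and a smaller one in WT. The p-values after injury are therefore not independent of the choice.

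Among the surface proteins, Ptprc had 358, 644, 643 and 411 CPM in the WT D0 mice and 236, 237, 440 and 308 in the WT D7 mice, numbered 1 to 4. In Trem2-/- the values were 726, 678, 710 and 418 at D0 and 140, 168, 206 and 178 at D7. In WT the groups overlapped, because the third injured mouse was above the 2 lowest uninjured ones, whereas in Trem2-/- every injured mouse was below every uninjured one. Ptprc fell by 0.75 on the log2 scale in WT (SE 0.25, adjusted p = 0.0340, limma) and by 1.84 in Trem2-/- (SE 0.25, adjusted p = 4.13e-05, limma).

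Cd53 had 351, 517, 631 and 405 CPM at WT D0 and 174, 227, 447 and 326 at WT D7. The Trem2-/- mice had 738, 545, 483 and 416 at D0 and 163, 155, 185 and 211 at D7. Again the third WT D7 mouse reached the uninjured range and no Trem2-/- D7 mouse did. The fall of 0.75 on the log2 scale in WT (SE 0.26, adjusted p = 0.0441, limma) was not called without WT D7 replicate 1, where the difference was -0.53 (adjusted p = 0.139, limma), and in Trem2-/- Cd53 fell by 1.58 (SE 0.26, adjusted p = 0.000192, limma).

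Of the GTPase regulators, Rac2 showed 284, 597, 593 and 327 CPM at WT D0 and 118, 200, 292 and 185 at WT D7. Its values in Trem2-/- were 674, 480, 758 and 353 at D0 and 86.7, 113, 143 and 117 at D7. A single WT D7 mouse, the third, overlapped the uninjured range. On the log2 scale Rac2 fell by 1.17 in WT (SE 0.31, adjusted p = 0.0135, limma) and by 2.25 in Trem2-/- (SE 0.31, adjusted p = 5.09e-05, limma).

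Hmha1 had 194, 470, 377 and 270 CPM at WT D0 and only 165, 145, 183 and 148 at WT D7. Acap1 likewise had 60.0, 128, 112 and 69.5 CPM at WT D0 and 39.1, 38.0, 46.9 and 36.2 at WT D7. These were the 2 genes of the 9 whose WT groups did not overlap, against 9.34% of all genes tested that were separated downward.

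In Trem2-/-, Hmha1 had 431, 361, 658 and 286 CPM at D0 and 89.8, 86.8, 104 and 87.7 at D7. Acap1 had 117, 93.8, 175 and 68.1 CPM at D0 and 20.2, 17.5, 23.0 and 20.2 at D7, the lowest CPM of the GTPase regulators. All 9 genes were separated in Trem2-/- (26.3% of all genes tested were separated downward). Hmha1 fell by 0.96 (SE 0.25, adjusted p = 0.0129, limma) in WT and fell by 2.16 (adjusted p = 2.14e-05, limma) in Trem2-/- on the log2 scale, and Acap1 fell by 1.12 (SE 0.26, adjusted p = 0.00656, limma) and fell by 2.35 (adjusted p = 1.63e-05, limma).

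Vav1 had 60.4, 127, 109 and 81.8 CPM at WT D0 and 49.7, 47.7, 66.3 and 61.0 at WT D7. In Trem2-/- it had 128, 110, 157 and 74.5 at D0 and 29.5, 31.4, 36.3 and 32.9 at D7. The first uninjured WT mouse was inside the injured WT range. The differences were -0.70 (SE 0.23, adjusted p = 0.0324, limma) in WT and -1.77 (SE 0.23, adjusted p = 3.30e-05, limma) in Trem2-/-.

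The actin proteins followed the same order of groups. Coro1a had 318, 651, 733 and 382 CPM at WT D0 and 143, 215, 322 and 180 at WT D7. The Trem2-/- values were 762, 581, 821 and 416 at D0 and 108, 122, 157 and 144 at D7. The WT groups met only where the third injured mouse exceeded the first uninjured one. The log2 differences of Coro1a were -1.25 (SE 0.29, adjusted p = 0.00749, limma) in WT and -2.24 (SE 0.29, adjusted p = 3.91e-05, limma) in Trem2-/-.

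Lcp1 was the most abundant of the 9 by CPM, with 868, 1540, 1522 and 955 at WT D0 and 418, 597, 1071 and 736 at WT D7. Trem2-/- mice had 1801, 1530, 1726 and 1022 at D0 and 382, 399, 512 and 432 at D7. The WT ranges overlapped through the third injured mouse. Lcp1 fell by 0.82 on the log2 scale in WT (SE 0.28, adjusted p = 0.0365, limma) and by 1.79 in Trem2-/- (SE 0.28, adjusted p = 0.000108, limma).

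Was, the least abundant by CPM, had 32.0, 90.5, 77.3 and 48.1 at WT D0 and 21.0, 28.5, 33.6 and 24.1 at WT D7. Its Trem2-/- values were 86.6, 53.5, 117 and 50.3 at D0 and 13.3, 18.2, 20.6 and 17.5 at D7. Once more the third injured WT mouse was just above the first uninjured one. The log2 differences were -1.09 (SE 0.31, adjusted p = 0.0172, limma) in WT and -2.01 (SE 0.31, adjusted p = 0.000101, limma) in Trem2-/-.

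**Figure D1:**
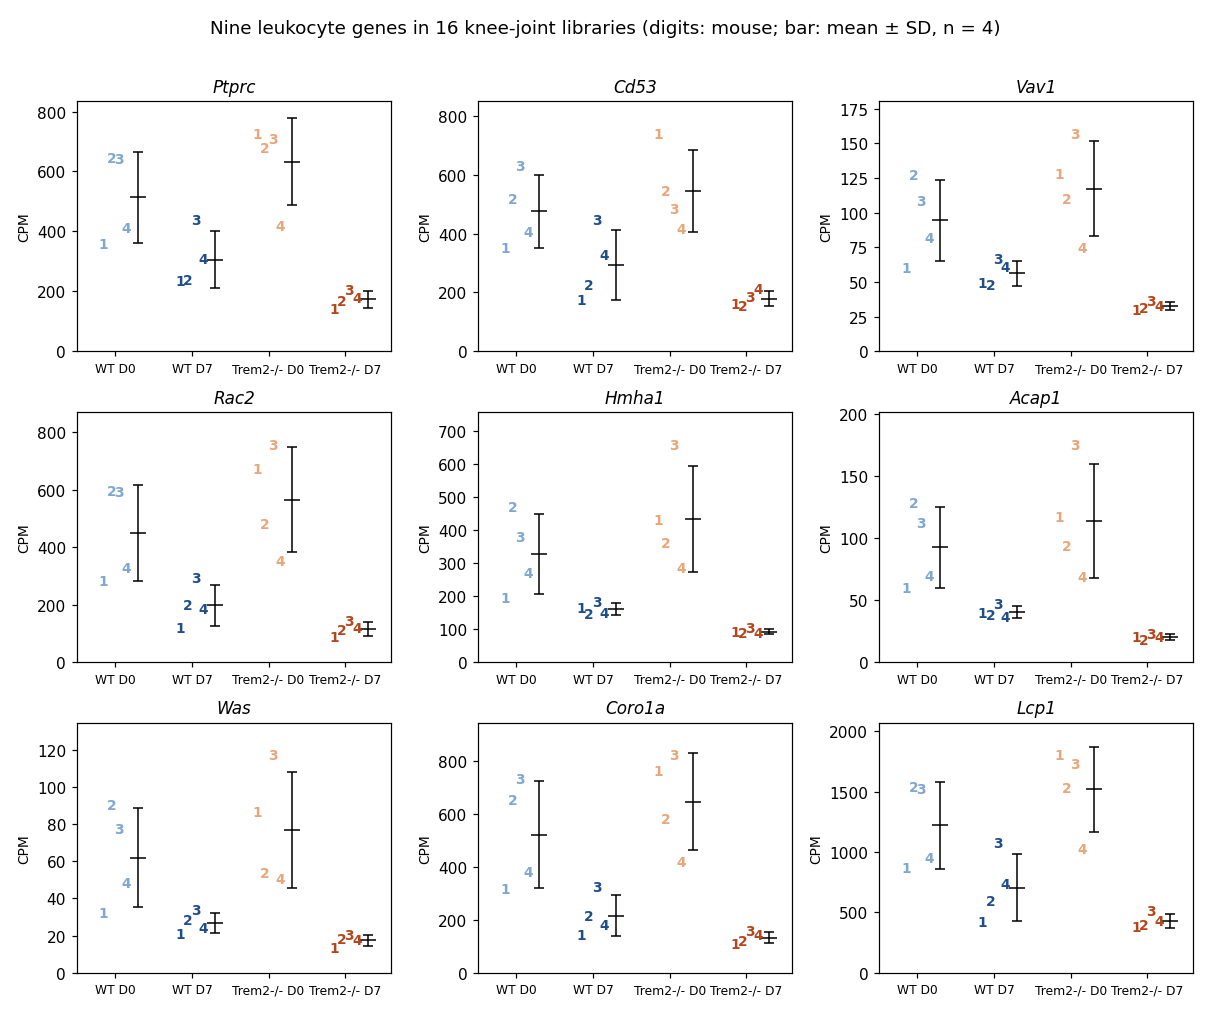
CPM of each of the 9 genes (y axes, linear and from 0) in the 4 groups (x axes). Each digit is a mouse with its replicate number and the bars are the mean ± SD of 4 mice. The Trem2-/- D7 mice lie below the D0 mice of both genotypes in every panel, and the WT D7 mice overlap WT D0 in 7 panels, mouse 3 among the overlapping mice in each.

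As ratios of group means, D0 was 1.62 to 2.42 times D7 in WT and 3.06 to 5.62 times D7 in Trem2-/-. With Benjamini-Hochberg adjustment over all genes, 9 of 9 also passed 0.05 in both genotypes (12.6% and 27.2% of all genes were lower on that rule). In WT this count was sensitive to single mice: 3 of 9 passed without WT D0 replicate 3 and 4 when replicate 2 of that group or the first WT D7 mouse was left out, whereas 5 passed without WT D7 replicate 2 or 4 and 5 when only the WT groups were fitted. In Trem2-/- it was 9 of 9 when only the Trem2-/- groups were fitted and with any of the 8 Trem2-/- mice left out.

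At D0 the genotypes overlapped for each of the 9 genes (0.44% of all genes were separated upward). Trem2-/- had higher means for all 9, with log2 differences from 0.20 (Cd53) to 0.41 (Hmha1) and a median of 0.33, and 0 of 9 were called, beside 2.15% of all genes. Unadjusted p ran from 0.122 to 0.459 by limma, no gene was under 0.05 unadjusted, and edgeR's quasi-likelihood test and voom called 0 of 9 as well. The 95% interval of the difference was -0.21 to 0.84 for Ptprc, -0.36 to 0.76 for Cd53 and -0.12 to 0.95 for Hmha1. Hmha1 was called higher in Trem2-/- without WT D0 replicate 2 (0.61) or Trem2-/- D0 replicate 4 (0.59), and Vav1 without the latter (0.51), with adjusted p of 0.396 to 0.871 (limma).

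At D7, the comparison with which the genes were chosen, all 9 had lower means in Trem2-/- than in WT. Ptprc, for example, had 173 ± 27.3 CPM against 305 ± 95.7, Rac2 115 ± 23.0 against 199 ± 71.6, Acap1 20.2 ± 2.23 against 40.1 ± 4.70 and Lcp1 431 ± 57.6 against 705 ± 276 (SD, n = 4). WT means were 1.54 to 1.98 times those of Trem2-/-, and the log2 differences ran from -0.95 (Acap1) to -0.59. Ptprc, Vav1, Hmha1, Acap1 and Was did not overlap between the genotypes and Cd53, Rac2, Coro1a and Lcp1 did. Over all genes 4.53% were called lower at D7 and 4.78% were separated downward, and 0 passed adjustment in any direction (958 had an unadjusted p under 0.05). Of the calls over all genes 79.3% were lower, and 66.7% after quantile normalization. The difference between the injury effects of the 2 genotypes, also given without a test, was -1.23 to -0.83 on the log2 scale for the 9 genes, with a median of -1.08.

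The mice of a group kept much the same order from gene to gene. WT D0 replicate 1 had the lowest value of its group for 9 of 9 genes, Trem2-/- D0 replicate 4 for 9 of 9, and WT D7 replicate 3 the highest for 9 of 9. Over the 16 libraries, which share depth and cell makeup across genes, Pearson's r between 2 of the genes on the log2 scale ran from 0.883 to 0.996 over the 36 pairs (median 0.968). After removal of the group means it ran from 0.410 to 0.980 (median 0.848). The spread at WT D7 was unequal: Hmha1 had 160 ± 17.4 CPM and Acap1 40.1 ± 4.70, whereas Cd53 had 293 ± 120 and Lcp1 705 ± 276 (SD, n = 4).

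No change of a gene relative to Ptprc passed adjustment. Before adjustment, in WT the log2 ratio to Ptprc went from -2.48 to -2.86 for Acap1, with no overlap of the groups (exact permutation p = 0.0286, two-sided). In Trem2-/- it went from -0.19 to -0.59 for Rac2 and from 0.01 to -0.38 for Coro1a, each without overlap (exact permutation p = 0.0286). Ratios of Lcp1, Vav1 and Cd53 to Ptprc changed by -0.08 to 0.26 between D0 and D7 in the 2 genotypes, with exact permutation p from 0.171 to 1. Adjusted over the 24 ratios compared, the smallest p was 0.229, and 0.0286 is the smallest that 4 mice against 4 can give.

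Levels were compared between genes per kilobase of the union of all annotated exons, 18313 bases for Ptprc and 4478 for Hmha1. A single transcript need not hold all of these bases, so the order depends on this choice of length. At WT D0 the order was Cd53 (273 ± 71.3 CPM per kb, SD, n = 4), Coro1a (187 ± 72.6), Rac2 (145 ± 54.2), Lcp1 (128 ± 37.8), Hmha1 (73.2 ± 27.0), Ptprc (28.1 ± 8.24), Was (26.0 ± 11.2), Vav1 (25.6 ± 7.94) and Acap1 (18.9 ± 6.72). With these lengths, Hmha1 and Ptprc were the only neighbours in this order whose ranges did not overlap. Cd53 led and Acap1 was last in all 4 groups. At WT D7 Cd53 had 168 ± 69.1 CPM per kb and Acap1 8.21 ± 0.963, and at Trem2-/- D7 they had 102 ± 14.5 and 4.14 ± 0.456.

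The relatives of these genes that are made in most tissues served as a comparison within the same libraries. The relatives taken were Ptpra for Ptprc, Cd81 for Cd53, Vav2 for Vav1, Rac1 for Rac2, Arhgap29 for Hmha1, Acap2 for Acap1, Wasl for Was, Coro1c for Coro1a and Pls3 for Lcp1. None of these 9 was called lower after injury in either genotype, beside 18.2% of all genes in WT and 27.9% in Trem2-/-. Of the 18 relatives tested, 3 were called lower in WT and 5 in Trem2-/-, and these are given below. The 9 relatives were chosen with earlier results of these data known, so this comparison and the ratios below depend on that choice. Rac1, the Rac of most cells, differed by 0.01 (SE 0.11) in WT and 0.06 (SE 0.11) in Trem2-/- on the log2 scale. Ptpra rose from 71.8 ± 9.49 to 98.1 ± 6.29 CPM in WT (log2 0.45, adjusted p = 0.00343, limma) and from 68.7 ± 3.40 to 97.3 ± 3.02 in Trem2-/- (0.50, adjusted p = 0.000415, limma). Cd81, a widely expressed tetraspanin, rose by 0.46 in WT and 0.74 in Trem2-/- and Wasl, the tissue form of Was, by 0.38 and 0.79, on the unadjusted call rule. In Trem2-/- Arhgap29 (0.71) and Pls3 (0.64) were called higher as well, as was Acap3 (0.55).

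**Figure D2:**
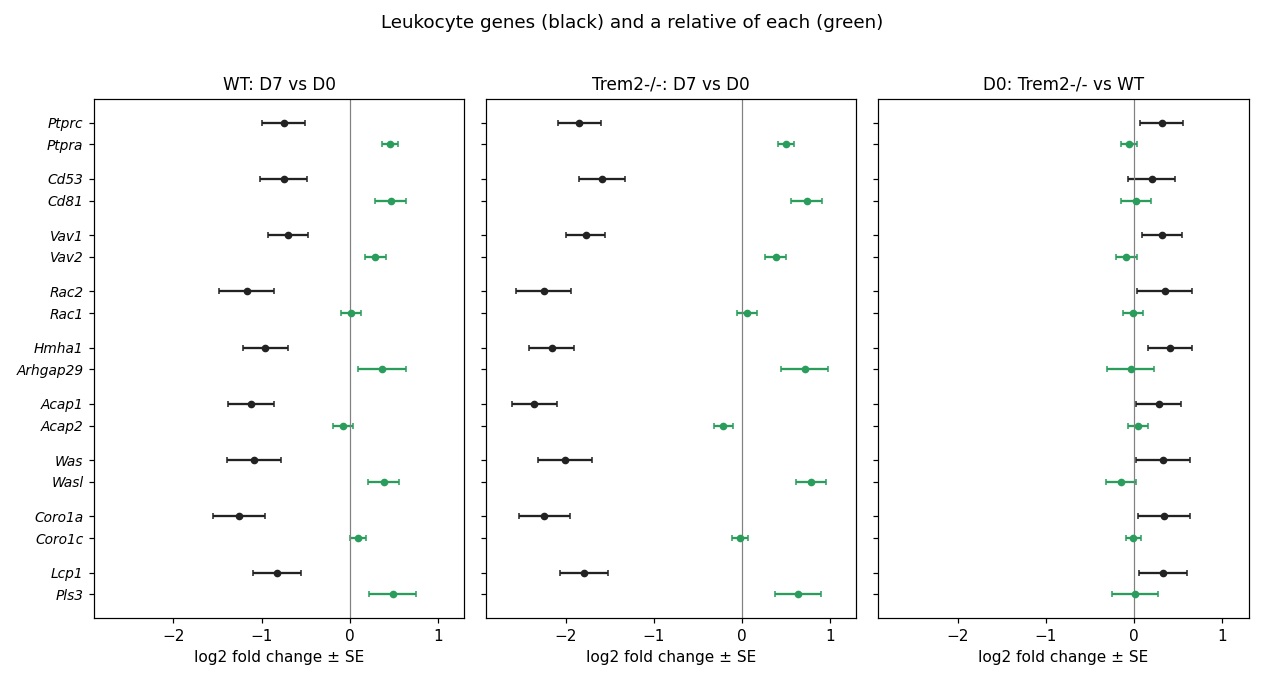
Log2 fold change on the log2(CPM + 1) scale with its standard error (x axes) for each of the 9 leukocyte genes (black) and a relative from the same family (green), for injury in WT, injury in Trem2-/- and genotype at D0. The 9 black points run from -1.25 to -0.70 in WT and from -2.35 to -1.58 in Trem2-/-, the green ones lie between -0.21 and 0.79 in both, and at D0 the black points lie between 0.20 and 0.41.

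Each leukocyte gene was also set against its relative within the same library, as the difference of their log2(CPM + 1) values, in which library scaling cancels except for the added 1. The log2 ratio of Rac2 to Rac1 was 0.26 at WT D0 and -0.92 at WT D7, so the means passed from a small excess of Rac2 reads to an excess of Rac1 reads, and in Trem2-/- it went from 0.62 to -1.69. For Was to Wasl the means were 0.05 and -1.42 in WT and 0.53 and -2.27 in Trem2-/-. In WT all 9 ratios were lower at D7, by -1.48 to -0.99, and Vav1, Acap1 and Coro1a were separated from D0 (exact permutation p = 0.0286, two-sided). The other 6 had exact permutation p from 0.0571 to 0.114. In Trem2-/- all 9 were lower by -2.87 to -2.14 and all 9 were separated (exact permutation p = 0.0286 each). Over the 27 tests the adjusted p of each of these 12 was 0.0643. Since the D7 mice are those with which the genes were chosen, these p-values are not independent of the choice. It favours a larger fall in Trem2-/- than in WT. At D0 the ratios differed between genotypes by 0.18 to 0.47, with exact permutation p from 0.257 to 0.714. At D7 they were lower in Trem2-/- by -1.10 to -0.53, and 8 of 9 did not overlap, all but Rac2 to Rac1, which is given as a description.

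**Figure D3:**
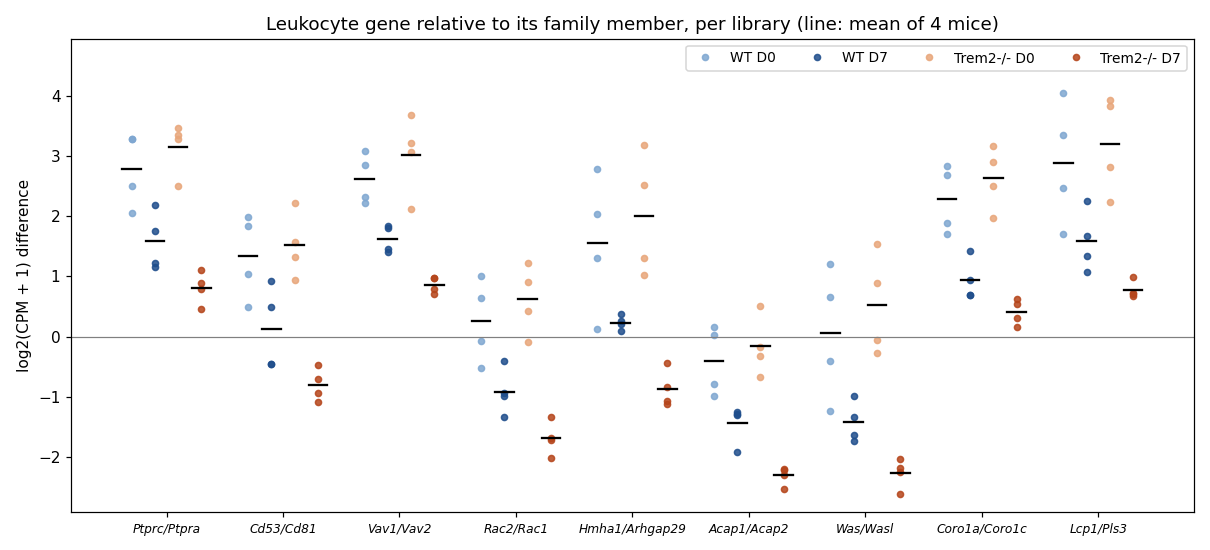
Log2 ratio of each leukocyte gene to its relative (y axis, difference of log2(CPM + 1) values) in every library, with the 4 groups in colour and black lines at the mean of 4 mice. The Trem2-/- D7 points are below both D0 groups for all 9 pairs, and the WT D7 means lie between.

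Of the 18 family relatives that could be tested, 4 were called higher and 3 lower after injury in WT, and 8 higher and 5 lower in Trem2-/-. Over all genes 19.3% were called higher and 18.2% lower in WT, and 26.5% and 27.9% in Trem2-/-, so the WT counts were near the background. The WT count of 7 dropped to 4 when WT D0 replicate 2 was left out and to 3 when WT D7 replicate 2 was. Without WT D0 replicate 1 it rose to 10. The relatives that were lower were named after their values were seen. Gmip, a GTPase activating protein related to Hmha1, fell by 0.70 on the log2 scale in WT (adjusted p = 0.0301, limma) and by 1.44 in Trem2-/- (adjusted p = 0.000107, limma). Vav3 fell by 0.49 and 0.99 and the tetraspanin Cd82 by 0.54 and 0.97 on the unadjusted call rule, and in Trem2-/- the phosphatases Ptpre and Ptprj by 0.50 and 0.60. At D7 Gmip, Vav3 and Ptprj were called lower in Trem2-/- than in WT (-0.51, -0.46 and -0.36), with adjusted p of 0.620 to 0.682 (limma), and without WT D7 replicate 3 or 4 or Trem2-/- D7 replicate 2 the count was 0, and without Trem2-/- D7 replicate 3 or 4 it was 1.

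Other leukocyte genes of the same pathways were described from 4 lists, of which 50 genes were tested. In WT, 38 of 50 were called lower after injury and 0 higher (29 lower with adjusted p under 0.05, limma). In Trem2-/- 47 of 50 were called lower and 0 higher (47 adjusted). Over all genes 18.2% were called lower in WT and 27.9% in Trem2-/-, and 12.6% and 27.2% were lower with adjustment. By mean alone, 47 of 50 were lower in WT and 49 of 50 in Trem2-/-. The median log2 difference was -0.71 in WT and -1.70 in Trem2-/-. By list, 14 of 16 kinases, phosphatases and adaptors and 9 of 12 regulators of small GTPases were called lower in WT. So were 8 of 13 genes of the actin machinery and 7 of 9 surface proteins. In Trem2-/- the counts were 15 of 16, 12 of 12, 11 of 13 and 9 of 9.

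In WT the largest falls were in Ptprcap, which encodes a protein bound to CD45 (log2 -1.54, adjusted p = 0.00275, limma), the surface sialoprotein Spn (-1.31), the GDP dissociation inhibitor Arhgdib (-1.27), Cd52 (-1.22) and the actin regulator Gmfg (-1.22). In Trem2-/- they were in the GTPase activating proteins Arhgap4 (-2.28, adjusted p = 2.40e-05, limma) and Arhgap9 (-2.24), Spn (-2.28), the phosphatase Ptpn6 (-2.20) and Gmfg (-2.16). Ptpn6, which opposes tyrosine kinases, went from 165 ± 71.8 to 32.6 ± 6.05 CPM in Trem2-/- (SD, n = 4).

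At D0, 0 of the 50 differed between genotypes on the call rule by limma, edgeR or voom, and 0 had an unadjusted p under 0.05 by limma. At D7, 31 of 50 were called lower in Trem2-/- than in WT and 0 called higher, against 4.53% of all genes called lower. Of the 50, 0 passed adjustment. Among those with the largest differences were the atypical GTPase Rhoh (-0.95), the adaptor Fyb (-0.91), the Rac exchange factor Dock2 (-0.85) and the Src family kinase Fgr (-0.84), with adjusted p from 0.441 to 0.475 (limma). Fyb had 63.9 ± 17.0 CPM at WT D7 and 32.7 ± 3.13 at Trem2-/- D7, and Rhoh 7.82 ± 2.07 and 3.46 ± 0.312 (SD, n = 4). These lists were drawn up with results of these libraries known, so they are no independent evidence of direction. For 30 of the 50 the injury effect was more negative in Trem2-/- on the unadjusted interaction test (5.02% of all genes), and 0 passed adjustment. Among the largest such differences were those of Fgr (-1.26), Fyb (-1.20), Arhgap4 (-1.15) and the adaptor Sla (-1.12). With a mouse left out, 22 to 31 of the 50 were called at D7 between genotypes and 20 to 37 for the interaction.

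Among 10543 other genes that averaged 5 CPM or more, Spi1 had the pattern most like the mean of the 9 z-scored genes (Pearson's r = 0.997 over 16 libraries). Spi1 encodes PU.1, an ETS family transcription factor of myeloid and B cells. Its mean level was 165 CPM at WT D0, 89.97 at WT D7, 203 at Trem2-/- D0 and 57.3 at Trem2-/- D7. Also among the closest were Itgal, the integrin chain of LFA-1 (r = 0.996), Arhgap9, Dok3, the NADPH oxidase subunit Ncf4, Pstpip1, which binds Was, the histone modifying enzyme Padi4 of neutrophils, Arhgap30 and the glutathione reductase Gsr (r = 0.992). These r values share the libraries and the group means and are a description.

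Markers of some cell types moved with the 9 genes and those of others did not. All 10 neutrophil markers were called lower after injury in both genotypes (medians -1.47 and -2.26 on the log2 scale), beside 18.2% of all genes in WT and 27.9% in Trem2-/-. The summed level of the 10 markers ran from 14634 to 33636 CPM at WT D0 and 4718 to 14477 at WT D7. In Trem2-/- it ran from 14941 to 44972 at D0 and 4420 to 7461 at D7. At D7, 0 of the 10 were called between genotypes by limma (0 with an unadjusted p under 0.05), although all 10 means were lower in Trem2-/-. Within WT D7 the neutrophil sum was highest in replicate 3, the mouse highest for all 9 genes. So were the sums of monocyte and macrophage, T and NK cell, erythroid and endothelial markers. Those of B cell, dendritic cell, connective tissue and skeletal muscle markers were not highest in that mouse.

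Of 8 B cell markers 7 were called lower after injury in each genotype. Over all genes 18.2% were called lower in WT and 27.9% in Trem2-/-, which is also the background for the lists that follow. At D7, 6 B cell markers were called lower in Trem2-/- than in WT (4.53% of all genes), and 0 passed adjustment. The sum of the 8 markers was 104 to 177 CPM at WT D7 and 101 to 112 at Trem2-/- D7. T and NK cell markers were called lower after injury for 7 of 8 in WT and 8 of 8 in Trem2-/-, with 8 of 8 means lower in both. Erythroid markers were called lower for 5 of 5 in both. Of 6 dendritic cell markers 2 were called lower in WT and 3 in Trem2-/-, and all 6 had lower means in both.

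Monocyte and macrophage markers went the other way for 6 of 8 genes called higher in WT (19.3% of all genes), such as C1qa (log2 2.25, adjusted p = 0.00127, limma). In Trem2-/- 5 of 8 were called higher (26.5% of all genes), and Cd14 and Cd68 were called lower. At D7, 3 of these 8 were lower in Trem2-/- than in WT on the unadjusted call rule (4.53% of all genes), and 0 passed adjustment. The summed level of the 8 markers was 883 to 1523 CPM at WT D0, 956 to 1736 at WT D7, 974 to 1594 at Trem2-/- D0 and 829 to 1008 at Trem2-/- D7. Cd14 was the largest part of this sum, with a mean of 685 CPM over the 16 libraries, beside 143 for Csf1r, the next. The log2 difference of Cd14 after injury was -0.54 in WT, not called, and -1.10 in Trem2-/-. This sum therefore says little about the markers that rose.

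After injury 7 of 9 connective tissue markers were called higher in WT (19.3% of all genes) and 8 of 9 in Trem2-/- (26.5%). All 9 of these markers had higher means in both genotypes. Their sum was 11738 to 64346 CPM at WT D0 and 130456 to 184321 at WT D7, 8835 to 18262 at Trem2-/- D0 and 127177 to 185814 at Trem2-/- D7. Since CPM are shares of a library, such transcripts take up a larger part of it at D7. At D0, 3 of the 9 were lower in Trem2-/- than in WT on the unadjusted call rule (1.37% of all genes), and 0 passed adjustment. The WT D0 sum was highest in replicate 4, 64346 CPM, beside 11738 to 28621 in the other mice. Of 5 endothelial markers 0 were called by limma after injury in either genotype (0 with an unadjusted p under 0.05). Over all genes 37.4% were called in WT and 54.5% in Trem2-/-. Of 5 skeletal muscle markers 2 were called lower in WT (18.2% of all genes) and 5 in Trem2-/- (27.9%). All 5 muscle markers had lower means in both genotypes. The part of these cell types in the levels of the 9 genes was not tested.

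**Figure D4:**
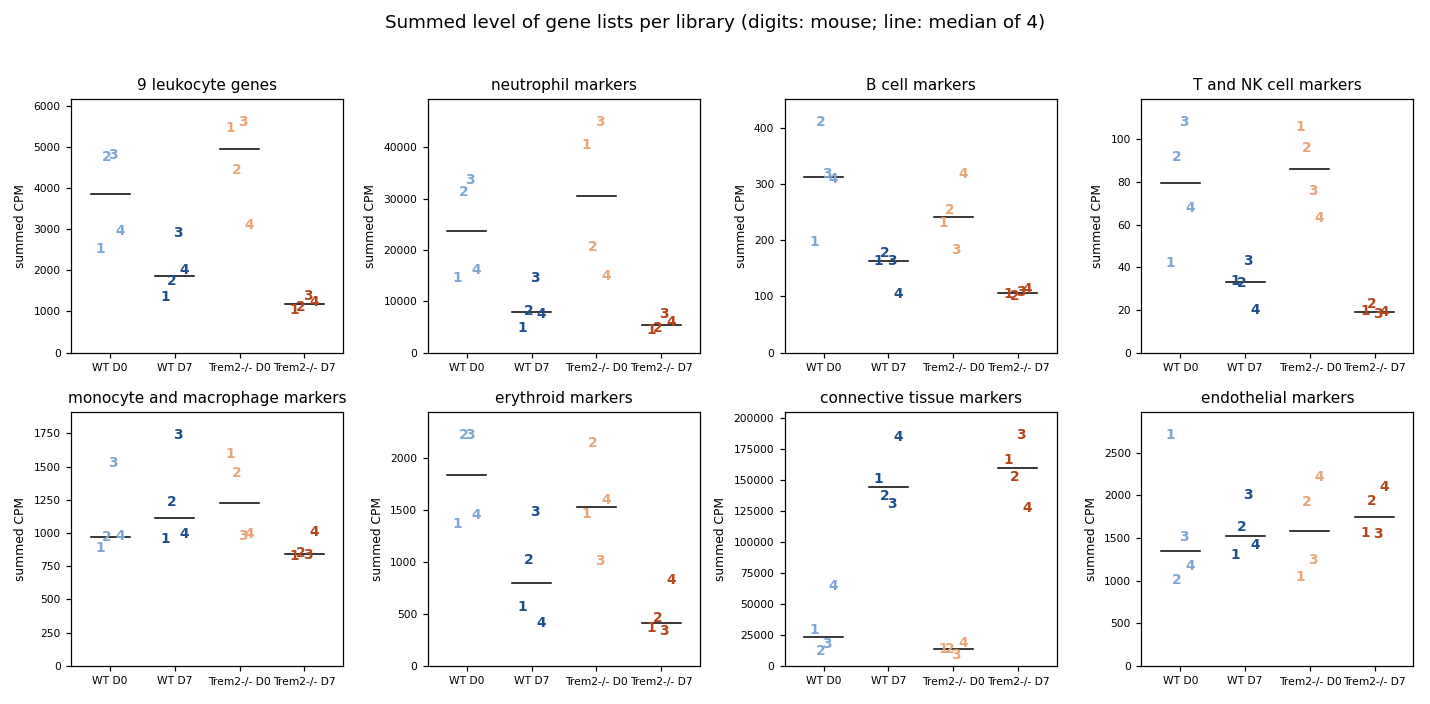
Summed CPM (y axes, linear and from 0) of the 9 leukocyte genes and of marker lists of 7 cell types in each library (digits, replicate number), with a line at the median of 4 mice. The sums of the 9 genes and of the neutrophil, B cell, T and NK cell and erythroid markers have lower medians at D7 than at D0 in both genotypes, and the connective tissue sum is higher at D7 in every mouse.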

How the data were processed

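Bulk RNA-seq of knee joint cells from 16 mice was used, 4 per group, with groups taken from the genotype and injury state in the labels. The authors used STAR (genome mm10) for alignment and featureCounts for gene counts, and the deposited values are a signal, CPM relative to library size multiplied by edgeR's TMM factor. Versions and the strand setting are not given in the sources used here. Every value was a whole multiple of that of 1 read (100% within a tolerance of 0.01), so reads were recovered for edgeR 4.0.16 and voom. Fcgr1, listed 2 times with identical values, was counted once.

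Values on the log2(CPM + 1) scale entered limma 3.58.1 (R 4.3.3; empirical Bayes with a mean trend), for the 13173 genes that reached 1 CPM in 4 or more libraries, and the 4 groups formed 1 factor. Fold changes of low genes are understated on this scale. A call needed an unadjusted p under 0.05 and a change of over 25% upward, or its reciprocal, after the study's methods, and Benjamini-Hochberg adjusted values are given beside it. Ratios were tested by exact permutation (two-sided) of 70 assignments. Tests were checked on simulated counts. Limits from 3 reads cover counting error only. Each pair of replicates differed by more than sampling noise.

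The members and lists were chosen with earlier results of these data known. Named are the 9 genes, their nearest relatives, Trem2, up to 5 genes per direction of the relatives and pathway lists by size of change among called genes averaging 5 CPM or more, and the 10 genes most like the members. A gene that these rules select is not reported here, and counts over lists include it. Genes of the lists that had no row (9 of 151) were not analysed here. Coordinates are from GENCODE M21 of GRCm38 and promoters from RefSeq. Alternatives were other pseudocounts, filters, scalings, fits and tools, and each replicate left out.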

Additional observations from a re-analysis of the deposited data

Results flagged for a closer look

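Among 108 groups of 4 mice tested, 6 held a mouse far from the rest by Dixon's ratio (its gap to the nearest mouse over the group's range), where chance gives about 5.4. Ptprc in Trem2-/- D0 replicate 4 was low (418 CPM against 678 to 726, ratio 0.845). The log2 ratio of Acap1 to Acap2 was low in WT D7 replicate 4 (0.932), and that of Lcp1 to Pls3 was high in Trem2-/- D7 replicate 3 (0.871). Summed monocyte and macrophage markers were high in WT D0 replicate 3 (0.859) and Trem2-/- D7 replicate 4 (0.875), and summed dendritic cell markers were high in the latter mouse as well (0.854).

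For 30 of the 50 pathway genes tested, and for 1 of 18 family relatives, Gmip, the injury effect differed between the genotypes on the unadjusted interaction test. In all of these the effect was more negative in Trem2-/-, and 0 of them passed adjustment over all genes. The count of pathway genes ran from 20 to 37 with a mouse left out. The count of relatives was 0 without WT D0 replicate 1 or 4, WT D7 replicate 3, Trem2-/- D0 replicate 1 or 3 or Trem2-/- D7 replicate 4, whereas it was 3 without WT D7 replicate 1 or 2 and 4 without WT D0 replicate 2.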

How the results depend on the processing

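The fall of the 9 genes after injury kept its direction for every gene under all alternatives run, with 8 or 9 of 9 called in WT and 9 of 9 in Trem2-/-. With adjustment, 5 of 9 passed in WT when only the groups compared were fitted (1736 genes of all) and 3 to 9 when a mouse was left out (1972 to 4792 genes of all). At D0 the count of members called was 0 to 2 with a mouse left out, of pathway genes 0 to 6 and of all genes 107 to 1231; all genes called numbered 164 with pseudocount 5, 149 with only the groups compared, 466 with edgeR and 131 at a fold over 1.5. At D7 between genotypes 1366 genes were called with only the groups compared, 340 at a fold over 1.5 and 480 to 1123 with a mouse left out. The count with adjusted p under 0.05 there was 1 with pseudocount 5, without the trend or with voom, 5 with only the groups compared, and 0 to 1 with a mouse left out. At a fold over 1.5, 2985 genes were called after injury in WT and 635 for the interaction, which had 609 to 2236 calls, and 0 to 1 adjusted, with a mouse left out. The median D7 difference of the 9 genes was -0.85 to -0.52 with a mouse left out. Replicate numbers gave no pairing, since deviations of same-numbered mice correlated from -0.509 to 0.406. With the number as a block 8 of 9 genes passed adjustment in WT, and 1 pathway gene was called at D0. The causes were not tested. With 4 mice per group the intervals at D0 were wide.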
